A study of Rattus norvegicus with 9 samples.

Results

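Integrins and the proteins of focal adhesions were followed in RNA of the rat left ventricle after ischemia/reperfusion injury (IRI) with and without remote ischemic postconditioning (RPostC). The genes were chosen by name: the integrin alpha and beta subunits, and a list of proteins that connect integrins to actin or signal from them. Each gene was represented by its probe set with the highest mean signal over the 9 arrays. Of 42 genes named in this way, 40 had a probe set with that single symbol, 24 integrin subunits and 16 focal adhesion proteins, among 21013 single-symbol genes on the array. The beta subunits Itgb1 and Itgb2, which pair with most matrix-binding and leukocyte alpha subunits, had no such probe set in the annotation used here and were not analysed.

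The 3 groups were male Wistar rats of the same age with no genetic change, and 3 arrays were available for each. Rats of the IRI + RPostC group underwent 45 min of occlusion of the left anterior descending (LAD) coronary artery and then 3 cycles of left femoral artery clamping (30 s) and release (30 s), followed by 15 min of stabilization. Rats of the IRI group underwent 45 min of LAD occlusion, reopening and 15 min of stabilization. In the control group, also called Sham, a thread was placed for 60 min and the vessel was not blocked. All rats had anesthesia, ventilation and an opened chest. A general passage of the protocol states 30 min of ligation instead, and the methods give a reperfusion time for the infarct staining but none for the ventricles used on the arrays. It is also not stated that each array holds a different rat, and p-values then measure the spread between these arrays only, which may be technical.

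Integrins are membrane receptors made of an alpha and a beta subunit, which together decide whether collagen, laminin, fibronectin or a ligand on another cell is bound. Talin and kindlin bind the beta tail inside the cell, and vinculin, alpha-actinin and filamin connect this complex to actin, while focal adhesion kinase and paxillin pass signals on. In the heart, cardiomyocytes carry such complexes at costameres along the cell membrane, and fibroblasts, endothelial cells and leukocytes carry sets of integrins of their own.

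Values were log2 signals as the authors deposited them, and the comparisons below were made with limma in a single model over the 9 arrays. A gene is said to have risen or fallen at a Benjamini-Hochberg adjusted p under 0.05 over 65403 probe sets. A gene was taken as not above background in a group when its 3 arrays lay under a log2 signal of 4.82, the 95th percentile of 272 probe sets for odorant, vomeronasal and taste receptors. The control arrays differed from the others in their distribution of values: 1820 to 1829 probe sets of each IRI + RPostC array and 1786 to 1830 of each IRI array stood at the highest value of the table, against 100 to 127 of each control array. Spiked hybridization controls averaged a log2 signal of 10.44 in the IRI + RPostC group, 10.42 in the IRI group and 11.21 in the control group. The part of these differences in the results against control was not tested. Results against control are therefore given also after quantile normalization, which gives every array the same distribution of values. They are given where this ended a call or turned the sign of a called gene, and for most of the other genes whose sign it turned. Genes of the 40 that were called only after it are named as well. Repeated values were common, and 12 of the 40 genes had the same value on all 3 IRI + RPostC arrays, 10 on all 3 IRI arrays and 6 on all 3 control arrays. A standard deviation of 0 in such a gene is no measure of precision.

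On the deposited scale 14 of the 40 genes passed the test between IRI and control, and 16 between IRI + RPostC and control. In the IRI + RPostC group, 13 genes rose (32.5%) and 3 fell (7.5%) against control, where 10.2% of the 21013 single-symbol genes rose and 9.84% fell. In the IRI group, 11 genes rose (27.5%) and 3 fell (7.5%) against control, where 8.9% of all single-symbol genes rose and 9.42% fell. These shares come from unlike sets, since 8 of the 40 genes lay under the background limit on all arrays, against 8993 of the 21013. The arrays did not overlap with control in 21 higher and 4 lower genes of the IRI + RPostC group, where 15.7% and 19.8% of all single-symbol genes did so, and in 18 higher and 4 lower genes of the IRI group, where 14.1% and 18.2% did so. The median log2 difference from control over the 40 genes was 0.05 in the IRI + RPostC group, against -0.04 over all single-symbol genes, and 0.09 in the IRI group, against -0.03. Under quantile normalization 5 genes rose and 13 fell in the IRI + RPostC group, and 4 rose and 11 fell in the IRI group. Over all 65403 probe sets, 5070 rose and 9271 fell in the IRI + RPostC group under this scaling. In the IRI group 4744 rose and 8946 fell. No gene of the 40 passed the test between IRI + RPostC and IRI. The 2 comparisons with control share the same 3 control arrays. Itga1, Itga2, Itga4, Itga5, Itga7, Itga9, Itgav, Itgb3, Actn4, Flna and Vcl rose in both on the deposited scale, of which Actn4, Flna and Vcl had the opposite sign after quantile normalization. Itga11, Itgb5 and Itgb6 fell in both.

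**Figure D1:**
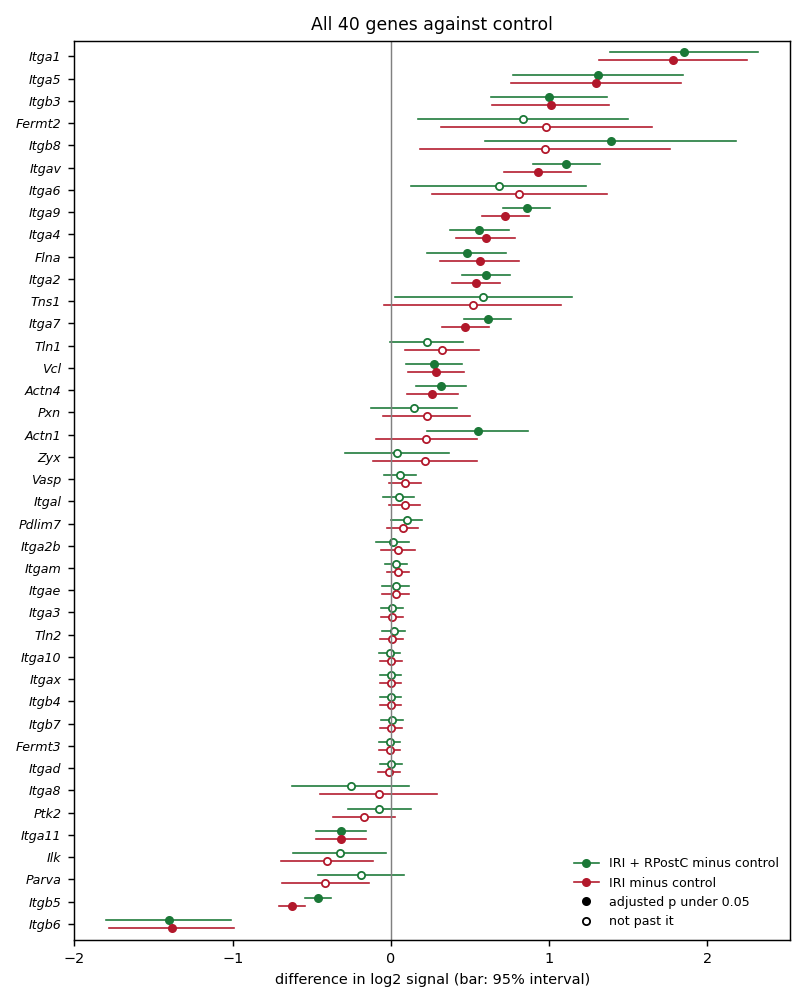
Difference in log2 signal from control for each of the 40 genes (horizontal axis), for IRI + RPostC (green, upper) and IRI (red, lower), with bars for the 95% interval and filled points for an adjusted p under 0.05 in limma. Itga1 stands furthest to the right at 1.85 (IRI + RPostC) and 1.78 (IRI) and Itgb6, under the background limit in both groups, furthest to the left. Among the filled points right of 0, those of Actn4, Flna and Vcl and the green point of Actn1 had the opposite sign after quantile normalization, as did 10 open points of each colour.

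Of the 4 collagen-binding alpha subunits, Itga1 and Itga2 rose in both comparisons with control. Itga1, a receptor for collagen and laminin found on vascular and stromal cells, had log2 signals of 9.64, 9.64 and 9.79 on the IRI + RPostC arrays, 9.99, 9.55 and 9.31 on the IRI arrays, and 8.15, 7.68 and 7.68 on the control arrays. All 6 arrays with occlusion lay above the control arrays. The log2 difference from control was 1.85 ± 0.20 (SE), or 3.61-fold, in the IRI + RPostC group (adjusted p = 0.000514) and 1.78 ± 0.20, or 3.44-fold, in the IRI group (adjusted p = 0.000683). It kept its direction and passed the test under each of 19 alternatives in both comparisons. Quantile normalization brought the difference to 0.63 in the IRI + RPostC group and 0.73 in the IRI group. Itga2, a collagen receptor of platelets and epithelium, had 5.51, 5.36 and 5.56 on the IRI + RPostC arrays, 5.34, 5.44 and 5.45 on the IRI arrays, and 4.91, 4.81 and 4.90 on the control arrays. The groups with occlusion did not overlap with control. The differences were 0.60 ± 0.064 in the IRI + RPostC group (adjusted p = 0.000504) and 0.54 ± 0.064 in the IRI group (adjusted p = 0.000997). Each of the 19 alternatives kept both calls. Itga10, a receptor of cartilage, was not above background on any array. Itga11, a fibrillar collagen receptor of fibroblasts, passed the test as lower in both groups. It lay between 4.26 and 4.77 on all 9 arrays, under the background limit, so no fold is given. The call of the IRI + RPostC group was lost without its replicate 3 (adjusted p = 0.0593), and that of the IRI group without its replicate 1 (adjusted p = 0.0582). Both were lost after quantile normalization and after median centring.

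Among the laminin-binding alpha subunits, Itga7, the partner of Itgb1 in the adult cardiomyocyte, had log2 signals of 6.83, 7.07 and 6.94 on the IRI + RPostC arrays, a single value of 6.81 on all 3 IRI arrays, and 6.28, 6.40 and 6.33 on the control arrays. Every array of the IRI + RPostC group lay above the IRI arrays, and these above control. Itga7 rose by 0.61 ± 0.064 in the IRI + RPostC group (adjusted p = 0.000449) and 0.47 ± 0.064 in the IRI group (adjusted p = 0.00194). After quantile normalization the differences were 0.11 (IRI + RPostC) and 0.05 (IRI), not past the test. Itga6, a laminin receptor of endothelium and many other cells, had 9.45, 8.86 and 8.86 on the IRI + RPostC arrays, 9.27, 8.75 and 9.55 on the IRI arrays, and 8.44, 8.28 and 8.41 on the control arrays. All arrays of both occluded groups were above control, but the differences of 0.68 ± 0.23 in the IRI + RPostC group (adjusted p = 0.0974) and 0.81 ± 0.23 in the IRI group (adjusted p = 0.0599) did not pass the test. After quantile normalization they had the opposite sign, at -0.67 (IRI + RPostC) and -0.42 (IRI), and did not pass it either. Itga3, an epithelial laminin receptor, stood between 5.45 and 5.47 on the 9 arrays, with the same value on all 6 IRI + RPostC and IRI arrays.

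Of the 3 alpha subunits that recognize the RGD sequence, Itga5 and Itgav rose against control and Itga8 did not. Itga5, the alpha subunit of the main fibronectin receptor, had log2 signals of 8.91, 8.09 and 8.22 on the IRI + RPostC arrays, 8.62, 8.09 and 8.48 on the IRI arrays, and 7.13, 7.10 and 7.07 on the control arrays. Neither occluded group overlapped with control, and they overlapped with each other. The differences from control were 1.31 ± 0.23, or 2.48-fold, in the IRI + RPostC group (adjusted p = 0.00656) and 1.30 ± 0.23, or 2.46-fold, in the IRI group (adjusted p = 0.00727). After quantile normalization they were 0.49 (IRI + RPostC) and 0.61 (IRI) and did not pass the test. Itgav, which joins Itgb3, Itgb5, Itgb6 or Itgb8 to bind vitronectin and latent TGF-beta, had 8.56, 8.88 and 8.87 on the IRI + RPostC arrays, 8.56, 8.65 and 8.56 on the IRI arrays, and 7.62, 7.73 and 7.64 on the control arrays. All arrays with occlusion were above control, by 1.11 ± 0.090, or 2.16-fold, in the IRI + RPostC group (adjusted p = 0.000113) and 0.93 ± 0.090, or 1.90-fold, in the IRI group (adjusted p = 0.000333). Quantile normalization reduced these differences to 0.07 (IRI + RPostC) and 0.02 (IRI), which did not pass the test. Itga8, a nephronectin receptor of smooth muscle and fibroblasts, lay at 4.94 to 5.31 in the IRI + RPostC group, 5.15 to 5.63 in the IRI group and 5.31 to 5.59 in the control group, and these ranges overlapped.

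Itga4 and Itga9, related alpha subunits that bind VCAM1 and further ligands and are carried by leukocytes, among other cells, both rose. Itga4 had log2 signals of 5.97, 5.88 and 6.04 on the IRI + RPostC arrays, 6.11, 6.03 and 5.88 on the IRI arrays, and 5.38, 5.32 and 5.51 on the control arrays. The occluded groups shared a value of 5.88 and lay apart from control, by 0.56 ± 0.079 in the IRI + RPostC group (adjusted p = 0.00236) and 0.60 ± 0.079 in the IRI group (adjusted p = 0.00173). Both calls held under each of 19 alternatives. Itga9, a tenascin-C and osteopontin receptor, had 7.61, 7.83 and 7.79 on the IRI + RPostC arrays, a single value of 7.61 on all 3 IRI arrays, and 6.93, 6.83 and 6.89 on the control arrays. Its differences from control were 0.86 ± 0.063, or 1.81-fold, in the IRI + RPostC group (adjusted p = 6.22e-05) and 0.72 ± 0.063, or 1.65-fold, in the IRI group (adjusted p = 0.000178). With quantile normalization they were 0.17 (IRI + RPostC) and 0.15 (IRI), and neither passed the test.

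None of the 6 alpha subunits of leukocytes and platelets passed the test in any comparison, and Itgad, Itgae and Itgax were not above background on any array. Itgam, which pairs with Itgb2 on neutrophils and macrophages, had a single log2 signal of 4.92 on all 3 IRI + RPostC arrays, 4.95, 4.92 and 4.92 on the IRI arrays, and 4.88, 4.90 and 4.88 on the control arrays. These values lay just above the background limit, and the log2 differences from control were 0.03 in the IRI + RPostC group and 0.04 in the IRI group. Itgal, the alpha subunit of the lymphocyte receptor for ICAM1, was above background only on IRI replicate 1, at 4.89. Itga2b, the platelet fibrinogen receptor subunit, was above background on IRI + RPostC replicate 1 at 4.83 and IRI replicate 3 at 4.93, and stood at 4.80 on the control arrays.

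The measured beta subunits moved in both directions. Itgb3, the partner of Itgav and Itga2b, had log2 signals of 6.91, 6.65 and 6.82 on the IRI + RPostC arrays, 6.67, 6.65 and 7.10 on the IRI arrays, and 5.64, 6.04 and 5.71 on the control arrays. All arrays with occlusion were above control, by 1.00 ± 0.16, or 2.00-fold, in the IRI + RPostC group (adjusted p = 0.00391) and 1.01 ± 0.16, or 2.02-fold, in the IRI group (adjusted p = 0.00393). Itgb5, which joins Itgav to bind vitronectin, had 6.17 on each IRI + RPostC array, 6.05, 6.01 and 5.96 on the IRI arrays, and 6.63, 6.62 and 6.64 on the control arrays. The 3 groups did not overlap, with control highest and IRI lowest. Itgb5 fell by 0.46 ± 0.035 in the IRI + RPostC group (adjusted p = 7.05e-05) and by 0.62 ± 0.035 in the IRI group (adjusted p = 1.23e-05). Both calls held under each of 18 alternatives. Itgb6, an epithelial subunit that with Itgav activates latent TGF-beta, had 4.43, 4.19 and 4.42 on the IRI + RPostC arrays, 4.23, 4.35 and 4.51 on the IRI arrays, and 5.87, 5.38 and 6.00 on the control arrays. It was above background only in the control group. With the background limit in place of the lower values it was at least 1.90-fold lower in the IRI + RPostC group (adjusted p = 0.000944) and at least 1.90-fold lower in the IRI group (adjusted p = 0.00108). Itgb8, another subunit that activates latent TGF-beta with Itgav, had 5.53, 5.95 and 6.13 on the IRI + RPostC arrays, 5.95, 5.35 and 5.07 on the IRI arrays, and 5.10, 4.06 and 4.28 on the control arrays. The IRI + RPostC arrays lay above control, and the IRI arrays overlapped with it. Itgb8 rose by 1.39 ± 0.34 in the IRI + RPostC group (adjusted p = 0.0286), while the IRI difference of 0.97 ± 0.34 did not pass the test (adjusted p = 0.108). The difference between the occluded groups did not pass it either. The Itgb8 call was lost without IRI + RPostC replicate 2 or 3, without control replicate 2 or 3, or without IRI replicate 2, with differences between 1.18 and 1.39 and adjusted p between 0.0519 and 0.0982. A second Itgb8 probe set averaged 5.22 in the IRI + RPostC group, 5.30 in the IRI group and 5.17 in the control group, and the mean of both gave 0.72 for IRI + RPostC against control (adjusted p = 0.0312). Itgb4, the hemidesmosome subunit, and Itgb7, a lymphocyte homing subunit, were not above background on any array.

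**Figure D2:**
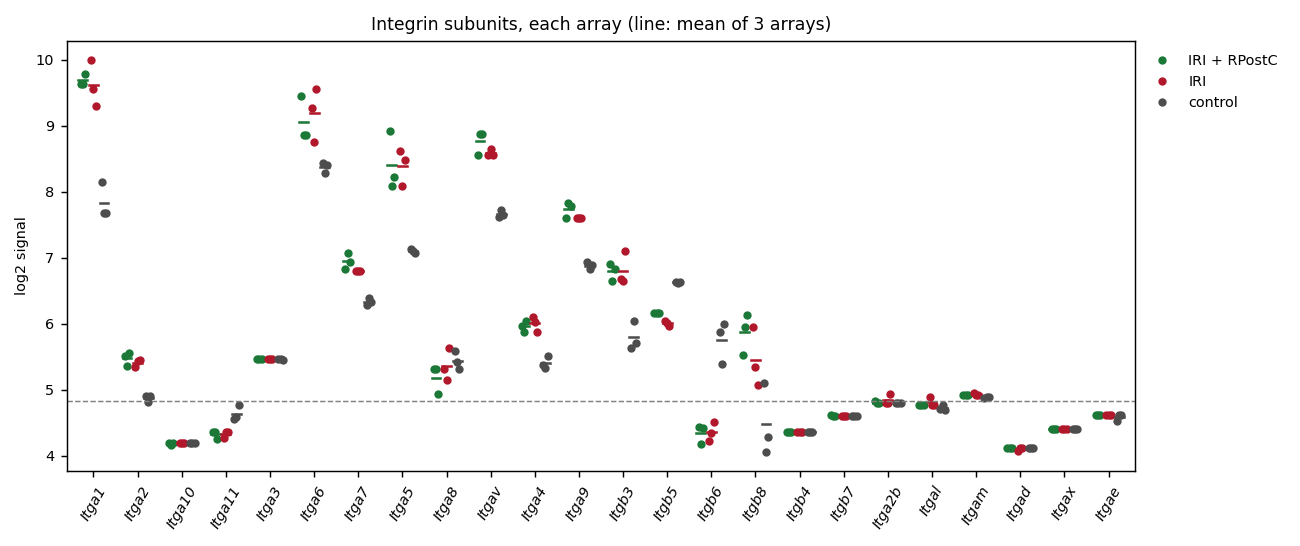
Log2 signal of the 24 integrin subunits on each array (points), ordered by the role of the subunit, with IRI + RPostC in green, IRI in red and control in grey, a line at each group mean, and a dashed line at the background limit of 4.82. The green and red points of Itga1, Itga5, Itgav, Itga9 and Itgb3 lie above the grey points, and for Itgb5 and Itgb6 below them.

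The 5′ regions of the genes were read from the RefSeq promoter table (build GRCr8, 250 bases before to 50 after the start), where 29 of the 40 genes had an entry. Searched on both strands were the CArG box, bound by serum response factor, the AP-1 site TGANTCA, the TEAD site CATTCC, the GC box GGGCGG and the TATA box TATAAA. The CArG box was found in 1 of the 29, that of Itgb6, against 1.64% of 33469 promoters, and is shown because Itgb6 had the largest decrease among the 40 genes. The TEAD site was found in 8 of 29 (27.6%), among them Flna, Itga4 and Vcl of the 8 genes that rose in both comparisons with control and had an entry, against 14.2% of all promoters. A pair of beta subunits and a pair of actin-linking genes with a match are shown with 30 bases on each side of the motif, on the strand of the gene, with the motif in capitals, GGAATG being CATTCC on the other strand.
Itgb6, chr3:65530389-65530458: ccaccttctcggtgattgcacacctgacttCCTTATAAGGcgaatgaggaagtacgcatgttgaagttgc
Itgb8, chr6:146351393-146351458: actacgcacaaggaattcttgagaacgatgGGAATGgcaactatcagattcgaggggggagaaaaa
Flna, chrX:157182382-157182447: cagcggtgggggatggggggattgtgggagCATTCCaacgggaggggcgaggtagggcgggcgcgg
Vcl, chr15:3404932-3404997: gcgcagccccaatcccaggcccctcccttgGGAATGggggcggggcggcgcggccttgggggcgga
All 4 genes lie on the minus strand, and the first base of the motif stands 95 (Itgb6), 183 (Itgb8), 74 (Flna) and 167 (Vcl) bases before the start. The GC box was found in 17 of 29 promoters (58.6%) against 33.1% of all, and the AP-1 site and the TATA box in 1 each, those of Itgax and Itgb7, against 7.33% and 14.2%. For each of the 29 genes 1 promoter was read, while the shares of all promoters cover every one of the 33469 entries, so the sets are unlike. A match is a string of letters and was not tested for binding.

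None of the 6 talins, kindlins and members of the ILK complex passed the test in any comparison on the deposited scale. After quantile normalization Fermt2, Ilk, Parva and Tln2 passed it as lower in both comparisons with control, and Tln1 in the IRI + RPostC group. Ilk then stood at -1.06 in both groups, Parva at -1.19 (IRI + RPostC) and -1.29 (IRI), and Tln2 at -0.59 (IRI + RPostC) and -0.53 (IRI). Tln1, the talin that links beta tails to actin in most cells, had log2 signals of 7.19, 7.24 and 7.19 on the IRI + RPostC arrays, 7.53, 7.19 and 7.19 on the IRI arrays, and 7.05, 6.89 and 7.01 on the control arrays. All arrays with occlusion were above control, with differences of 0.23 ± 0.098 (adjusted p = 0.169) in the IRI + RPostC group and 0.32 ± 0.098 (adjusted p = 0.0712) in the IRI group. After quantile normalization they were -0.43 (IRI + RPostC) and -0.25 (IRI). Tln2, the talin of the cardiomyocyte, stayed between 6.87 and 6.93 on the 9 arrays. Fermt2, the kindlin of muscle and stromal cells, had 12.14, 12.16 and 12.21 on the IRI + RPostC arrays, 12.73, 12.11 and 12.10 on the IRI arrays, and 11.76, 11.51 and 10.73 on the control arrays. No array with occlusion overlapped with control, but the differences of 0.83 ± 0.28 in the IRI + RPostC group (adjusted p = 0.0931) and 0.98 ± 0.28 in the IRI group (adjusted p = 0.0588) did not pass the test. They were -5.84 (IRI + RPostC) and -5.54 (IRI) after quantile normalization. Ilk, the pseudokinase that binds beta tails and parvin, had 6.98, 7.10 and 7.05 on the IRI + RPostC arrays, 7.10, 7.10 and 6.70 on the IRI arrays, and 7.53, 7.28 and 7.28 on the control arrays. Its arrays with occlusion were all below control, at -0.32 ± 0.12 in the IRI + RPostC group (adjusted p = 0.130) and -0.40 ± 0.12 in the IRI group (adjusted p = 0.0750). Parva, the actin-binding parvin of this complex, shared a value of 7.71 on all 3 IRI + RPostC arrays, IRI replicate 1 and control replicate 3, with 7.33 and 7.43 on the other IRI arrays and 8.01 and 7.99 on the other control arrays. Fermt3, the kindlin of blood cells, was not above background on any array.

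Of the 7 actin-linking proteins, 4 rose in the IRI + RPostC group and 3 in the IRI group on the deposited scale, and all of these had the opposite sign after quantile normalization. They were Flna, Actn4, Vcl and, in the IRI + RPostC group alone, Actn1. Flna, a crosslinker of actin that binds beta tails, had log2 signals of 8.28, 8.10 and 8.04 on the IRI + RPostC arrays, 8.41, 8.04 and 8.23 on the IRI arrays, and 7.66, 7.74 and 7.59 on the control arrays. The occluded groups lay above control by 0.48 ± 0.11 (IRI + RPostC, adjusted p = 0.0196) and 0.56 ± 0.11 (IRI, adjusted p = 0.0102), and stood at -0.49 (IRI + RPostC) and -0.30 (IRI) relative to it after quantile normalization. The Flna call of the IRI + RPostC group was lost without IRI + RPostC replicate 1 or 2 or control replicate 1 or 3, with differences between 0.41 and 0.50 and adjusted p between 0.0531 and 0.0619. Vcl, the vinculin that reinforces the bond between talin and actin, had 9.54, 9.59 and 9.54 on the IRI + RPostC arrays, 9.54, 9.54 and 9.63 on the IRI arrays, and 9.11, 9.35 and 9.39 on the control arrays. All arrays with occlusion lay above control, with differences of 0.27 ± 0.075 (IRI + RPostC, adjusted p = 0.0480) and 0.29 ± 0.075 (IRI, adjusted p = 0.0420), but of -1.76 (IRI + RPostC) and -1.59 (IRI) after quantile normalization. Leaving out any single array except control replicates 1 and 3 ended both calls of Vcl, with differences of 0.26 to 0.32 and adjusted p of 0.0546 to 0.140.

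Actn4, a nonmuscle alpha-actinin, had 10.99, 11.12 and 10.99 on the IRI + RPostC arrays, 11.06, 10.88 and 10.99 on the IRI arrays, and 10.77, 10.63 and 10.76 on the control arrays. The differences were 0.32 ± 0.068 (IRI + RPostC, adjusted p = 0.0171) and 0.26 ± 0.068 (IRI, adjusted p = 0.0407), against -4.74 (IRI + RPostC) and -4.61 (IRI) after quantile normalization. The call of the IRI + RPostC group was lost without its replicate 2 (0.27, adjusted p = 0.0581). That of the IRI group was lost on leaving out any single array except IRI replicate 2 and IRI + RPostC replicate 2 (0.22 to 0.29, adjusted p = 0.0579 to 0.118). Actn1, the alpha-actinin of stress fibers, had 7.71, 7.81 and 7.59 on the IRI + RPostC arrays, 7.09, 7.44 and 7.61 on the IRI arrays, and 7.08, 7.27 and 7.12 on the control arrays. The IRI + RPostC arrays lay above control, by 0.55 ± 0.14 (adjusted p = 0.0307), with -0.21 after quantile normalization, while the IRI difference of 0.22 ± 0.14 did not pass the test (adjusted p = 0.334) and was -0.40 after quantile normalization. This call was lost without any IRI + RPostC array, without control replicate 1 or 3, or without IRI replicate 2, with differences of 0.50 to 0.60 and adjusted p of 0.0537 to 0.105. Tns1, a tensin of mature adhesions, had differences of 0.58 ± 0.24 (IRI + RPostC, adjusted p = 0.148) and 0.52 ± 0.24 (IRI, adjusted p = 0.212). After quantile normalization they were -5.65 (IRI + RPostC) and -5.50 (IRI) and passed the test. Zyx, which gathers at strained actin, and Vasp, an actin polymerization factor, differed from control by 0.04 and 0.06 in the IRI + RPostC group and by 0.22 and 0.09 in the IRI group, none past the test. IRI replicate 1 held the highest Zyx signal, at 6.54, against 5.92 to 6.00 on the other 8 arrays. The Zyx differences were -0.29 (IRI + RPostC) and -0.09 (IRI) after quantile normalization.

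The signaling and LIM scaffold proteins did not pass the test in any comparison on the deposited scale. After quantile normalization Ptk2 and Pdlim7 passed it as lower in both comparisons with control, Ptk2 at -1.12 (IRI + RPostC) and -1.09 (IRI). Ptk2, the focal adhesion kinase, had log2 signals of 7.93 on each IRI + RPostC array, 7.93, 7.93 and 7.64 on the IRI arrays, and 8.01, 7.93 and 8.07 on the control arrays, so that 6 of 9 arrays held the same value. Pxn, the scaffold paxillin, lay at 6.02 to 6.18 in the IRI + RPostC group, 6.02 to 6.43 in the IRI group and 5.87 to 5.97 in the control group. Pdlim7, a LIM protein of actin filaments, lay at 6.34 to 6.44 in the IRI + RPostC group, 6.34 to 6.42 in the IRI group and 6.27 to 6.33 in the control group. Neither gene overlapped with control, and the differences were 0.15 in the IRI + RPostC group and 0.23 in the IRI group for Pxn, and 0.10 and 0.07 in the same groups for Pdlim7. Both genes had the opposite sign after quantile normalization, Pxn at -0.18 (IRI + RPostC) and -0.07 (IRI) and Pdlim7 at -0.35 (IRI + RPostC) and -0.32 (IRI).

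**Figure D3:**
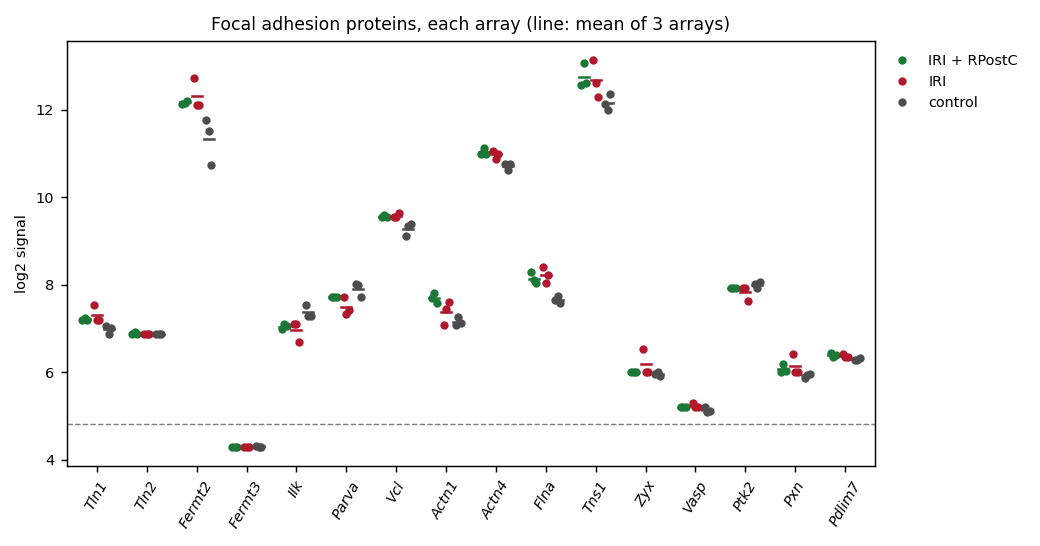
Log2 signal of the 16 focal adhesion proteins on each array (points), with IRI + RPostC in green, IRI in red and control in grey, a line at each group mean, and a dashed line at the background limit of 4.82. The largest spread within a group is among the control arrays of Fermt2, from 10.73 to 11.76, and IRI replicate 1 stands above the other arrays of Zyx at 6.54.

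Across the 40 genes, IRI replicate 1 held the highest value of its group alone in 17 and the lowest alone in 5, against 1 and 7 for IRI replicate 2 and 8 and 8 for IRI replicate 3. The IRI + RPostC replicates held it alone in 9, 11 and 5 genes, and the control replicates in 14, 8 and 9. IRI replicate 1 was the highest of the 3 in Itga1, Itga5, Flna, Fermt2, Tln1, Tns1 and Pxn, and leaving it out kept the direction and call of each gene that had risen in the IRI group except Actn4 and Vcl.

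The comparison of IRI + RPostC with IRI asks whether remote postconditioning altered the response of these genes. No gene of the 40 passed the test, nor did any of the 65403 probe sets. At an unadjusted p under 0.05, Itgb5 and Actn1 were higher in the IRI + RPostC group and no gene was lower, 2 of 40 (5%), where 1.91% of all single-symbol genes were higher and 0.771% lower. The methods' t-test gave 1 gene at the same threshold. The median difference over the 40 genes was 0. The Itgb5 difference was 0.16 (95% interval 0.08 to 0.24, unadjusted p of 0.00213, adjusted p = 0.987), and its 3 IRI + RPostC arrays shared 1 value. For Actn1 it was 0.32 (0.01 to 0.64, unadjusted p of 0.0469, adjusted p = 1), with overlapping arrays. Next in order of p were Itga7 at 0.14 (-0.01 to 0.29), Itga9 at 0.14 (-0.01 to 0.28), Itgav at 0.18 (-0.03 to 0.39) and Parva at 0.22 (-0.05 to 0.50), each with an adjusted p of 1. Only Itgb5 and Itga7 showed no overlap between the arrays of these groups, both higher in the IRI + RPostC group, while 2.89% of all single-symbol genes were higher without overlap and 1.68% lower.

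The 95% interval of the difference between IRI + RPostC and IRI reached 0.17 to each side of the estimate in the median gene, 0.07 at the narrowest and 0.79 in Itgb8. For Itga1 the interval was -0.39 to 0.54, for Itga5 -0.53 to 0.55 and for Itgb3 -0.38 to 0.36. It was -0.23 to 0.15 for Itga4 and -0.19 to 0.16 for Vcl. Itgb6 was at background in both groups and has no fold. An interval around 0 does not show that the 2 groups were alike. The intervals of genes with repeated values, Itgb5, Itga7, Itga9 and Parva among them, rest in part on a spread of 0 within a group.

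**Figure D4:**
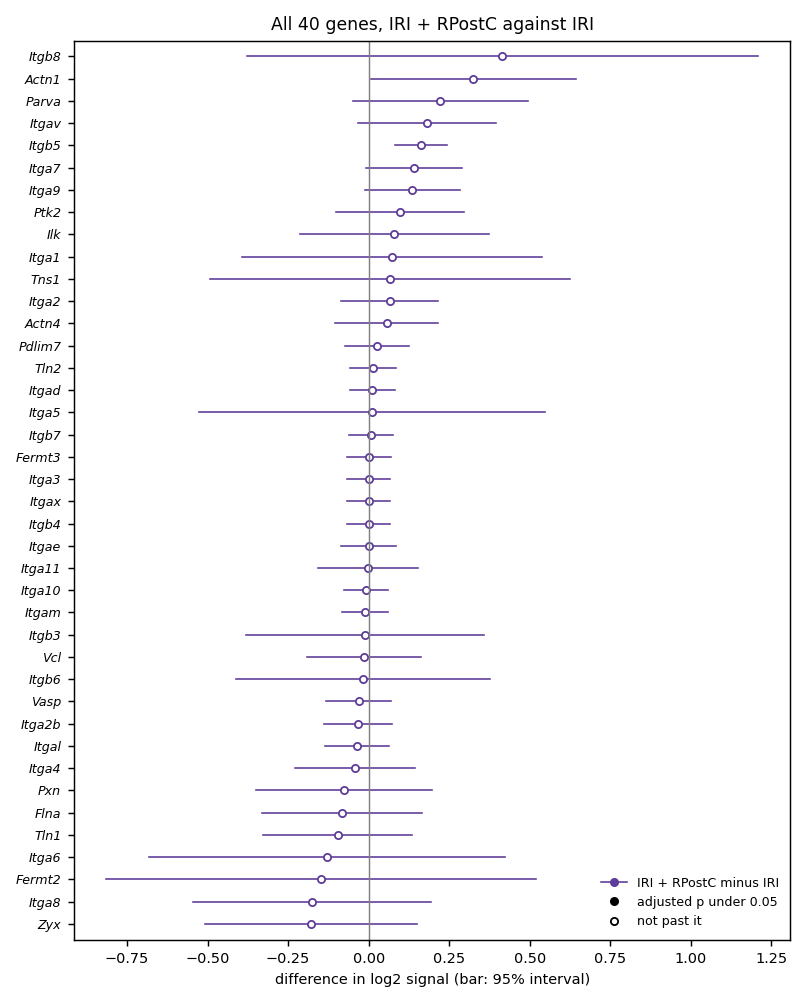
Difference in log2 signal between IRI + RPostC and IRI for each of the 40 genes (horizontal axis), with bars for the 95% interval and open points for an adjusted p of 0.05 or more in limma. All 40 points are open, and the intervals of Itgb5 and Actn1 lie to the right of 0.

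The direction of several genes against control depended on scaling. After quantile normalization Itga1, Itga2, Itga4 and Itgb3 rose and Itgb5 and Itgb6 fell in both comparisons, as on the deposited scale, and Itgb8 rose in the IRI + RPostC group. By contrast, Actn4, Fermt2, Pdlim7, Tln2, Tns1 and Vcl, above 0 on the deposited scale, fell in both after quantile normalization. Flna and Tln1, also above 0 on the deposited scale, fell in the IRI + RPostC group. Ilk, Parva and Ptk2 lay below control on both scales and passed the test only after quantile normalization. Of the genes above 0 against control on the deposited scale, called or not, 14 lay below 0 after quantile normalization in the IRI + RPostC group and 13 in the IRI group. Actn1, Actn4, Fermt2, Flna, Itga3, Itga6, Pdlim7, Pxn, Tln1, Tln2, Tns1, Vcl and Zyx did so in both, and Vasp in the IRI + RPostC group. Another 2 genes in each comparison, all at background, turned the other way. Differences were largest for Fermt2 and Tns1, at -5.54 and -5.50 in the IRI group, against 0.98 and 0.52 on the deposited scale. The share of higher probe sets among all that passed the test was 60.7% for IRI + RPostC and 61.4% for IRI against control on the deposited scale, 35.4% and 34.7% in the same comparisons after quantile normalization, and 75.8% (IRI + RPostC) and 71.8% (IRI) after median centring of the arrays. Centring moved the median difference of all probe sets between IRI + RPostC and control by over 0.1, to 0.06 from -0.06 on the deposited scale.

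**Figure D5:**
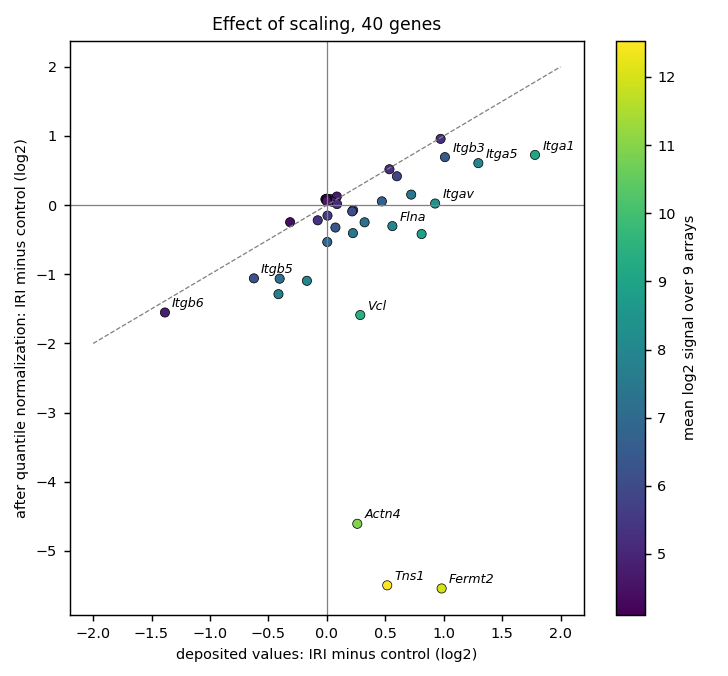
Difference in log2 signal between IRI and control for the 40 genes on the deposited scale (horizontal axis) and after quantile normalization (vertical axis), with the mean log2 signal over the 9 arrays as colour and a dashed line where both are equal. Itga1, Itga5 and Itgb3 lie above 0 on both axes and Itgb5 and Itgb6 below 0 on both, while Flna at -0.30, Vcl at -1.59, Actn4 at -4.61, Tns1 at -5.50 and Fermt2 at -5.54 lie below 0 on the vertical axis only.

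Other genes of the adhesion pathway were counted from lists written with earlier results of these data known. Of 34 measured integrin ligands, 16 rose and none fell in the IRI + RPostC group, and 16 rose and none fell in the IRI group against control. In each comparison, 7 of the 16 rose after quantile normalization as well, where 4 ligands fell in the IRI + RPostC group and 5 in the IRI group. Thbs1, the matricellular protein thrombospondin that binds several integrins, averaged 19.91 in the IRI + RPostC group, 19.66 in the IRI group and 8.53 in the control group. The occluded groups stood next to the highest value of the table, so the log2 difference from control is given as a bound. On the deposited scale it was at least 11.39 in the IRI + RPostC group and at least 11.13 in the IRI group. After quantile normalization the Thbs1 difference was 7.44 (IRI + RPostC) and 7.30 (IRI), so the bound holds for the deposited scale only. Fn1, the fibronectin bound by Itga5, averaged 8.96 ± 0.29 (SD) in the IRI + RPostC group, 8.23 ± 0.0057 in the IRI group and 7.20 ± 0.093 in the control group. It rose by 1.76 in the IRI + RPostC group (adjusted p = 8.42e-05) and 1.03 in the IRI group (adjusted p = 0.00174) against control. Its IRI difference after quantile normalization, 0.32, did not pass the test. The difference of 0.73 ± 0.14 (SE) between IRI + RPostC and IRI had an unadjusted p of 0.00102 and an adjusted p of 0.795. That unadjusted p rests in part on the small spread of 0.0057 in the IRI group. Icam1, the endothelial ligand of leukocyte integrins, averaged 9.92 ± 0.72 in the IRI + RPostC group, 8.16 ± 0.86 in the IRI group and 5.50 ± 0.24 in the control group, and rose in both comparisons with control on both scales. Lamc1 and Lamb1, chains of laminin, rose by 2.86 and 1.46 in the IRI + RPostC group and 2.51 and 1.43 in the IRI group. After quantile normalization Lamb1 passed the test, at 0.66 (IRI + RPostC) and 0.76 (IRI), and Lamc1 did not.

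Of 27 further focal adhesion adaptors, 6 rose and 1 fell in the IRI + RPostC group, and 6 rose and 1 fell in the IRI group against control. After quantile normalization 2 rose and 11 fell in the IRI + RPostC group, and 4 rose and 10 fell in the IRI group. The adaptor that fell, Itgb1bp2, is melusin, a muscle protein that binds the Itgb1 tail, and averaged 8.68 ± 0.26 in the IRI + RPostC group, 8.55 ± 0.27 in the IRI group and 11.92 ± 0.12 in the control group (SD). Its difference from control was -3.24 in the IRI + RPostC group (adjusted p = 8.45e-06) and -3.37 in the IRI group (adjusted p = 7.00e-06), and -8.98 in both after quantile normalization. Nexn, an actin-binding protein of the Z-disc, had differences of 3.92 (IRI + RPostC) and 3.88 (IRI) that passed the test on the deposited scale but turned to -3.07 (IRI + RPostC) and -2.94 (IRI) after quantile normalization. Pdlim5 and Tes, LIM proteins of Z-discs and adhesions, rose by 2.80 and 2.09 in the IRI + RPostC group and 2.43 and 1.64 in the IRI group, and passed the test after quantile normalization as well.

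Of 20 kinases, GTPases and regulators of adhesion signaling, 6 rose and 3 fell in each comparison with control, and after quantile normalization 2 rose in each while 9 fell in the IRI + RPostC group and 10 in the IRI group. Ppp1r12a, the targeting subunit of myosin phosphatase, rose by 1.79 in the IRI + RPostC group and 1.66 in the IRI group, and by 0.64 and 0.68 in the same groups after quantile normalization. Rap1b, a GTPase that activates integrins through talin, rose by 1.34 in the IRI + RPostC group and 1.16 in the IRI group. The values after quantile normalization, 0.40 (IRI + RPostC) and 0.36 (IRI), did not pass the test. Of 13 tetraspanins and other integrin partners, 5 rose and none fell in each comparison with control on the deposited scale, and after quantile normalization 2 rose and 7 fell in the IRI + RPostC group and 2 rose and 5 fell in the IRI group. Sdc4, a syndecan that acts with Itga5 on fibronectin, and Plaur, the urokinase receptor, rose on both scales, Sdc4 by 1.75 in the IRI + RPostC group and 1.29 in the IRI group. Cd63, a tetraspanin, had differences of 2.35 (IRI + RPostC) and 2.41 (IRI) on the deposited scale and -0.34 and -0.13 in the same groups after quantile normalization. No gene of these lists passed the test between IRI + RPostC and IRI.

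Markers of the cell types in the ventricle were measured on the same arrays. The mean log2 signal of 8 cardiomyocyte markers was 14.88 to 14.94 in the IRI + RPostC group, 14.91 to 14.94 in the IRI group and 14.44 to 14.53 in the control group, so the defining markers of heart muscle were present on all arrays. In each comparison with control, 3 of the 8 rose on the deposited scale, and all 8 fell after quantile normalization. None of the 8 was below control on the deposited scale, where the lowest difference was 0 in each comparison. A marker with 1 repeated value gives a difference of 0 and cannot show a fall on that scale. Cardiomyocyte RNA can therefore not be called unchanged from these values. The falls of the 8 markers appeared only after quantile normalization. The mean of 7 endothelial markers was 10.14 to 10.25 in the IRI + RPostC group, 9.88 to 10.82 in the IRI group and 7.71 to 8.14 in the control group. In each comparison with control 5 of 7 rose, 3 of them also after quantile normalization, where 2 of the 7 fell, and Pecam1 rose by 7.31 in the IRI + RPostC group and 7.01 in the IRI group. The mean of 7 fibroblast markers was 9.15 to 9.18 in the IRI + RPostC group, 8.79 to 8.89 in the IRI group and 7.60 to 8.20 in the control group. Of these, 4 rose in the IRI + RPostC group and 3 in the IRI group, while after quantile normalization none rose, and 2 fell in the IRI + RPostC group and 3 in the IRI group. The mean of 14 leukocyte markers was 5.62 to 5.77 in the IRI + RPostC group, 5.59 to 5.68 in the IRI group and 5.15 to 5.21 in the control group. Of these, 6 rose in the IRI + RPostC group and 5 in the IRI group, and 4 and 3 rose in the same groups after quantile normalization, where 1 fell in each. Among them Ptprc, the leukocyte common antigen, rose by 2.11 in the IRI + RPostC group and 1.97 in the IRI group, while Cd3e, Ms4a1 and Fcgr3a were not above background on any array. The mean of 6 platelet markers was 4.79 to 5.03 in the IRI + RPostC group, 4.81 to 5.35 in the IRI group and 4.62 to 4.76 in the control group, and 1 of them, Pf4, rose in the IRI group. The mean of 8 smooth muscle and pericyte markers was 7.89 to 8.33 in the IRI + RPostC group, 7.86 to 8.93 in the IRI group and 8.42 to 8.57 in the control group, and 1 of them, Acta2, fell on the deposited scale and 3 after quantile normalization in each comparison with control. These markers moved in the same comparisons as Itga1, Itga4, Itga5, Itga9 and Itgav, and their part in the integrin results was not tested. In RNA of a whole tissue, more or fewer cells of a type and more or less RNA per cell cannot be told apart.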

How the data were processed

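Left ventricular RNA was hybridized to 9 Affymetrix arrays, 3 per group, grouped by their labels. The methods name the Rat Gene 2.0 ST chip and the series record a human array. The probe sets carry rat annotation. The authors applied robust multichip analysis (RMA), and the deposited values were taken as log2 signals. Its version was not given in the sources used here, nor whether the 9 arrays were normalized together. Among 65526 probe sets, 123 controls were left out. Names came from the platform annotation: 22070 probe sets had 1 symbol, 478 several and 42855 none. All 40 genes were in the RefSeq table, which held 20886 of 21013 symbols.

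limma 3.58.1 in R 4.3.3 (lmFit, contrasts.fit, eBayes) was fitted on all 9 arrays with 3 groups, no covariate and no filter, and p was adjusted by Benjamini-Hochberg over 65403 probe sets. The fit had 6 residual and 1.10 prior degrees of freedom. It was tested on simulated data. The number of arrays limits the precision. A bound replaced the lower mean by the background limit.

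The genes and lists were chosen with earlier results of these data known. All 40 genes may be named. Values of every array are given for the 10 called genes with the largest difference between IRI and control, the 6 of smallest p between IRI + RPostC and IRI and the leaders of each role, and, added after values were seen, for Itga6, Itgb8, Fermt2 and Actn4. Of each further list, up to 4 genes of smallest p per comparison were named. Pf4, Acta2, Plaur, Cd3e, Ms4a1 and Fcgr3a were named as single members. Promoters came from RefSeq (GRCr8). Alternatives were quantile normalization, median centring, array weights, 2 groups alone, trend and robust options of eBayes, removal of dim probe sets or of those at 19 or more, the t-test of the methods, a block for the replicate number, the mean of a gene's probe sets, and leaving out each array. Python 3.11.15, numpy 2.4.6, pandas 2.3.3 and matplotlib 3.10.9 were used.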

Additional observations from a re-analysis of the deposited data

How the results depend on the processing

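The counts of genes called against control moved most with quantile normalization, to 5 higher and 13 lower for IRI + RPostC (13 and 3 on the deposited scale) and to 4 higher and 11 lower for IRI (11 and 3). Over all 65403 probe sets it gave 5070 higher and 9271 lower for IRI + RPostC (7025 and 4547 on the deposited scale). For IRI it gave 4744 and 8946 (6509 and 4094). Among the called genes it turned the sign of Actn1 (-0.21), Actn4 (-4.74), Flna (-0.49) and Vcl (-1.76) in IRI + RPostC, and of Actn4 (-4.61), Flna (-0.30) and Vcl (-1.59) in IRI. The cause was not tested. The methods' t-test, adjusted, left 7 higher genes for IRI, and at its own threshold 18 were higher and 4 lower for IRI + RPostC and 13 and 3 for IRI. Adjusted, it ended the calls of Actn4, Itga11 and Vcl in both comparisons, of Itga5 and Itgb8 for IRI + RPostC and of Flna and Itgb3 for IRI. A filter on dim probe sets left 1 lower gene for IRI + RPostC, and moved the median difference to 0.32 for IRI + RPostC and 0.29 for IRI. A setting added after the data were seen, without probe sets that repeat a value on all arrays of a group, moved it to 0.51 and 0.42 in the same comparisons, since it tests fewer genes. Leaving out 1 array gave 8 to 13 higher and 2 to 4 lower genes for IRI + RPostC, the 8 without IRI + RPostC replicate 2, and 9 to 12 higher and 3 to 4 lower genes for IRI. The 2 genes higher at an unadjusted p under 0.05 between IRI + RPostC and IRI became 0 with quantile normalization, 5 with array weights, 1 with 2 groups alone, with trend and robust settings, with the t-test and without repeated values, and 1 to 4 on leaving out 1 array, the 4 without IRI + RPostC replicate 1. No gene passed the adjusted test there under any alternative. The replicate number as a block gave 10 higher and 3 lower genes for IRI + RPostC and 9 and 2 for IRI. After removal of the group means, same-numbered arrays correlated between -0.3 and 0.037. Arrays of different number were not compared in this way, so whether the numbers pair the arrays was not decided. Signals near background and repeated values limit what can be said of 8 genes under 4.82 on all arrays.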
